A study of Mus musculus with 3 samples.

Results

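After initiation, RNA polymerase II (Pol II) stops a short way into most genes and is released into elongation by a small set of factors. The RNA-seq levels of 9 genes for these factors are described here, chosen by name from the 21782 genes of the count table: the BET genes Brd2 and Brd3, the P-TEFb genes Cdk9, Ccnt1 and Ccnt2, the P-TEFb inhibitor gene Hexim1, the NELF genes Nelfa and Nelfe, and Supt5, which encodes a DSIF subunit. Every one of these genes was listed under its current symbol, and all 9 had at least 10 counts in every library. The libraries were made from polyA-selected RNA of mouse embryo fibroblasts (MEFs), primary fibroblast cultures from E12.5 embryos grown in DMEM with 20% FBS. They are 3 asynchronous wild type (WT) clones, with 1 library per clone, and their labels name no treatment, transgene or deletion. This is a single condition, so no difference between conditions was tested, and the comparisons below are between genes and between clones.

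Paused Pol II is held by 2 complexes that bind it soon after initiation. DSIF consists of SPT5 and SPT4, and NELF of the subunits A, B, C or D, and E. P-TEFb, made of the kinase CDK9 and a cyclin T, phosphorylates NELF, SPT5 and the C-terminal domain of Pol II. NELF then leaves, and SPT5 stays with the polymerase as an elongation factor. Much of the P-TEFb in a cell is kept inactive by HEXIM1 or HEXIM2 on the 7SK small nuclear RNA, together with LARP7 and MEPCE. BET proteins bind acetylated histones through paired bromodomains, and some of them bring active P-TEFb to promoters and enhancers. In the study, Pol II, NIPBL and cohesin were compared at active promoters, which is where these factors act.

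Library totals lay between 22594316 and 25261357 counts. Levels are counts per 1000000 (CPM) with TMM-scaled library sizes, on which 1 count was 0.0396 to 0.0443 CPM. All 8 fibroblast markers reached at least 1 CPM in every clone and summed to between 45747 and 56790 CPM, whereas 0 of 4 epithelial markers did. The fibroblast markers had no common direction between clones, 5 being highest in clone 1 and 3 in clone 2. Of the 4 endothelial markers, 1 did reach 1 CPM in every clone (Kdr, 9.49 CPM on average). The 4 summed to 7.33, 10.7 and 13.1 CPM in clones 1, 2 and 3. In 2 marker lists, every marker was highest or lowest in the same clone. All 8 macrophage markers were highest in clone 2, where they summed to 1339 CPM against 301 CPM in clone 1 and 246 CPM in clone 3. All 6 proliferation markers were lowest in clone 1, with a sum of 368 CPM against 723 CPM in clone 2 and 609 CPM in clone 3. Whether either list has a part in the values below was not tested, so the calls of the 9 genes are also given without each clone. In such bulk samples, fewer cells of a type and less RNA per cell cannot be told apart.

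Levels of different genes were compared per kb of annotated exon, since a longer transcript gives more reads. Supt5 was the highest of the 9 genes at 36.8 ± 3.82 CPM per kb (SD, n = 3 clones). It was followed by Brd2 at 27.0 ± 0.801, Cdk9 at 16.5 ± 0.647, Nelfe at 10.3 ± 0.251, Brd3 at 9.86 ± 0.507, Hexim1 at 6.44 ± 0.139, Nelfa at 5.21 ± 0.514, Ccnt2 at 3.11 ± 0.378 and Ccnt1 at 1.06 ± 0.102 CPM per kb. Of the neighbours in this order, only Nelfe and Brd3 had overlapping values, and Nelfe was above Brd3 in 2 of 3 clones. Each of the other neighbours was separated in all 3 clones. Expressed genes, those with at least 1 CPM in every clone, had a median of 5.49 CPM per kb with quartiles at 2.09 and 14.2, over the 11002 with a known length. Supt5 was above 90.0% of them and Brd2 above 86.2%, while Ccnt2 was above 34.5% and Ccnt1 above 12.7%. Cdk9 was above 77.9% of these genes and Brd3 above 66.4%. Per kb of exon, the DSIF, BET and kinase genes were thus above the median of expressed genes, and the cyclin T genes below it. In CPM not divided by length, Ccnt2 was above 61.6% of expressed genes and Ccnt1 above 25.5%. The place of Ccnt2 relative to the median thus depended on the division by exon length.

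**Figure D1:**
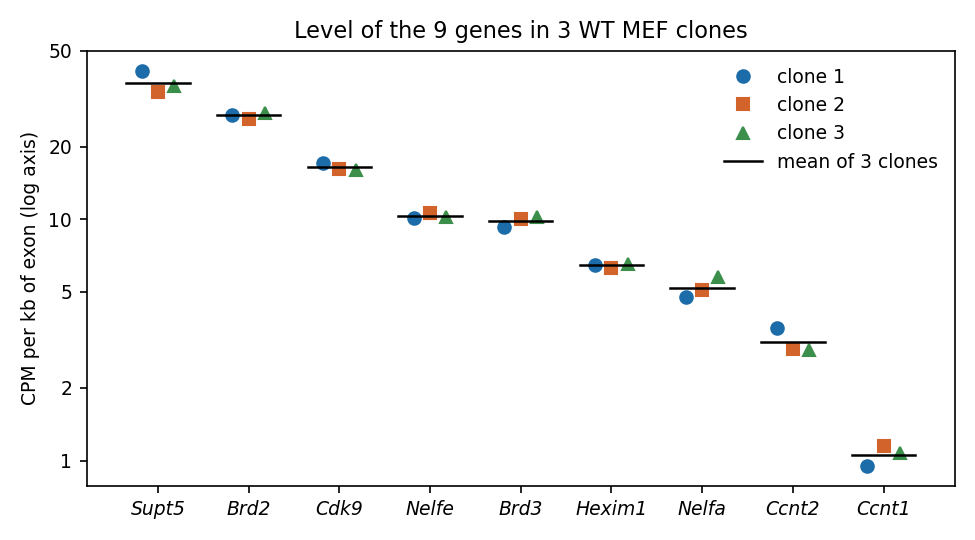
Level of the 9 genes (CPM per kb of annotated exon, log axis) in each of the 3 WT MEF clones, with a black line at the mean. The genes fall from Supt5 at 36.8 to Ccnt1 at 1.06 CPM per kb, and the clones of a gene lie close together compared with the steps between most genes.

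The order depends in part on the length used. Annotated exons together cover 4611 bp for Cdk9 but the transcript that holds its longest coding sequence has 1733 nt. Per kb of such transcripts, Cdk9 was at 43.8 ± 1.72 and Brd2 at 45.3 ± 1.35 CPM per kb (SD, n = 3), and their values in the clones overlapped. Brd3 (13.7 ± 0.704) and Nelfe (13.3 ± 0.325) changed places, as did Nelfa (7.98 ± 0.786) and Hexim1, which has a single exon and so the same length in both cases. Supt5 stayed first, and Ccnt2 and Ccnt1 stayed last.

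The promoters of the genes varied in CpG content, with a median above that of expressed genes. RefSeq start sites on GRCm38.p6 gave 10 promoters for 8 of the 9 genes, each from 250 bases before to 50 bases after the start, and none for Nelfe. The starts used for Ccnt1, Hexim1 and Nelfa, and some of those for Brd2, are not starts in GENCODE. Their median GC content was 65.7%, against 61.3% over 11201 promoters of expressed genes and 52.7% over all 32851 promoters. They held a median of 32 CpG dinucleotides, against 21 for expressed genes and 7 for all promoters. They ranged from 14 in 1 of the 3 Brd2 promoters to 46 in that of Brd3, and Hexim1 had 21. The letters TATAAA, searched on both strands, occurred in 0 of these 10 promoters, in 6.82% of those of expressed genes and in 13.6% of all. The 30 bases just before the start are shown for Brd3 and Ccnt2, where GENCODE and RefSeq place a start at the same base and the window lies outside annotated exons. They are written 5′ to 3′ on the strand of the gene, with CpG in capitals, at chr2:27475399-27475428 (minus strand) and chr1:127774134-127774163 (plus strand).
Brd3: tgtgCGCGgcCGCGatgcaacaaagCGggg
Ccnt2: gcacattggggCGgggcctCGacacattgg
The Brd3 window holds 5 CpG and that of Ccnt2 holds 2, and over the whole promoter there were 46 and 32.

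Of the BET genes, Brd2 was the more abundant. Brd2 (chromosome 17, 34112023 to 34122634, GRCm38, minus strand) had 5262, 4607 and 5475 counts in clones 1, 2 and 3, which is 211 ± 6.27 CPM (SD, n = 3). Brd3 (chromosome 2, 27445579 to 27507662, minus strand) had 1694, 1658 and 1903 counts, or 72.4 ± 3.72 CPM. Per kb of exon, Brd2 took 74.4%, 72.3% and 73.0% of the sum of both genes in clones 1, 2 and 3, a mean of 73.2% ± 1.11 (SD, n = 3). The 95% Wilson intervals of these shares, which cover counting error only, lay between 71.1% and 75.5%. Brd2 was thus 2.74 ± 0.158 times the level of Brd3, and it was higher in every clone. Brdt, whose product is the BET protein of the male germ line, had 9, 7 and 13 counts and did not pass the filter. Exons of genes on the opposite strand, among them H2-DMa, overlap 9.78% of the Brd2 exon length, and since the strand setting of the counting is not given, reads there cannot be assigned to one strand.

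Within P-TEFb, the kinase gene was far above both cyclin genes. Cdk9 (chromosome 2, 32705784 to 32713076, minus strand) had 1970, 1689 and 1859 counts, or 75.9 ± 2.98 CPM (SD, n = 3). Ccnt2 (chromosome 1, 127774164 to 127808061, plus strand) had 1087, 807 and 898 counts, or 38.4 ± 4.67 CPM, and was highest in clone 1. Ccnt1 (chromosome 15, 98538689 to 98570923, minus strand) had only 216, 238 and 248 counts, or 9.69 ± 0.937 CPM, and was lowest in clone 1. These opposite orders show in the share of Ccnt1 among the cyclin T transcripts, which per kb of exon was 21.1% in clone 1 (95% Wilson interval 18.8 to 23.7), 28.4% in clone 2 (25.6 to 31.5) and 27.1% in clone 3 (24.4 to 29.995). The interval of clone 1 lies below those of the other clones, which overlap each other. The mean share was 25.6% ± 3.90 (SD, n = 3), and it was 27.8% without clone 1.

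On the log2 scale, Cdk9 per kb exceeded the sum of Ccnt1 and Ccnt2 by 1.94, 2.003 and 2.01 in clones 1, 2 and 3, with a mean of 1.98 ± 0.0422 (SD). This is 3.96-fold, and it was 6.27-fold per kb of the coding transcripts just named. The direction was the same in all 3 clones, but an exact sign-flip permutation test (two-sided) over 3 clones cannot give a p below 0.25, which is its value here. The Ccnt1 count is the least precise of the 9, with an expected counting error of 6.54% per clone. In addition, exons of 9330020H09Rik on the opposite strand overlap 7.59% of its exon length.

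**Figure D2:**
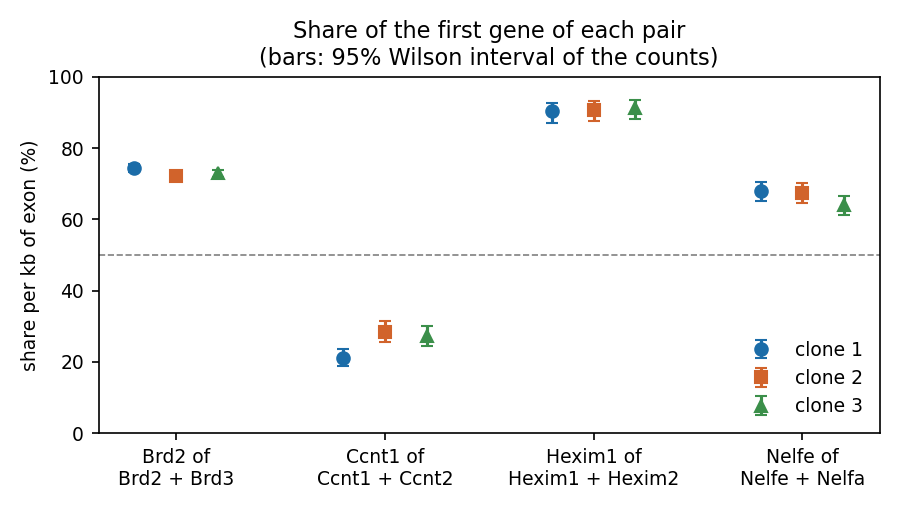
Share of the first gene in the sum of each pair (percent, per kb of exon) in each clone, with 95% Wilson intervals of the counts as bars and equal levels at the dashed line. Brd2, Hexim1 and Nelfe are above their partners in every clone, and Ccnt1 is below Ccnt2, most clearly in clone 1.

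Between the HEXIM genes, Hexim1 had the higher transcript level in these fibroblasts. Hexim1 (chromosome 11, 103116231 to 103119725, plus strand) had 563, 495 and 578 counts, or 22.5 ± 0.487 CPM (SD, n = 3), and its neighbour Hexim2 (103132429 to 103139876 on the same strand) had 41, 34 and 38 counts, or 1.55 ± 0.0832 CPM. The CPM of Hexim1 in the 3 clones were 22.7, 22 and 22.9, so none of the libraries stood apart. Per kb, Hexim1 was 9.85 ± 0.503 times the level of Hexim2, and its share of both was 90.3%, 90.8% and 91.2% in the 3 clones. Hexim1 was below Cdk9 in every clone, with log2 ratios per kb of exon of -1.41, -1.37 and -1.29 in the 3 clones. The mean log2 ratio was -1.35 ± 0.0624 (SD), and the exact sign-flip permutation test gave its smallest possible p of 0.25. With the coding transcript lengths the mean was -2.77. Of the other genes of the 7SK particle, Larp7 and Mepce were at higher levels than Hexim1. Larp7, whose product binds the 3′ end of 7SK, was at 12.4 ± 1.33 CPM per kb (SD, n = 3). Mepce, whose product caps 7SK, was at 8.72 ± 0.995 CPM per kb. The 7SK RNA itself has no polyA tail and was not analysed here.

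The 4 NELF genes lay between 5.21 and 15.2 CPM per kb, with Nelfa the lowest. Nelfa (chromosome 5, 33897916 to 33936413, minus strand) had 468, 453 and 576 counts, or 20.6 ± 2.03 CPM (SD, n = 3). Nelfe (chromosome 17, 34850391 to 34856372, plus strand), which encodes the RNA-binding subunit, had 520, 495 and 537 counts, or 21.4 ± 0.522 CPM. In counts the genes were alike, with 52.6%, 52.2% and 48.2% of their sum on Nelfe, and the intervals of all 3 clones include equal shares. Per kb of exon, Nelfe took 67.9%, 67.5% and 63.9%, a mean of 66.4% ± 2.18 (SD, n = 3), since its exons cover 2076 bp and those of Nelfa 3947 bp. Nelfb and Nelfcd, the genes of the remaining subunits, were higher, at 15.2 ± 0.548 and 12.6 ± 0.710 CPM per kb. Of the sum of the 4 NELF genes per kb, Nelfb took 35.1% ± 1.73, Nelfcd 29.0% ± 1.19, Nelfe 23.8% ± 0.221 and Nelfa 12.0% ± 1.15. With the other length, the shares were 34.7%, 27.9%, 23.4% and 14.0%, in the same order.

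Supt5 (chromosome 7, 28314891 to 28338746, minus strand), the gene of the large DSIF subunit, had 5880, 4378 and 5186 counts, or 212 ± 22 CPM (SD, n = 3). Clone 1 was the highest at 237 CPM, clone 2 the lowest at 194 CPM and clone 3 was at 205 CPM. Relative to Polr2a, which encodes the catalytic subunit of Pol II, the level of Supt5 per kb was 90.6% ± 5.48, that of Brd2 66.6% ± 2.88 and that of Cdk9 40.6% ± 0.716 (SD, n = 3). With the coding transcript lengths these were 133% ± 8.02, 107% ± 4.62 and 103% ± 1.82, so whether the 3 genes lay below or above Polr2a depended on the length used. The gene of its partner, Supt4a, had 492, 355 and 437 counts. Per kb, Supt5 exceeded Supt4a by 0.97, 1.01 and 0.96 on the log2 scale in clones 1, 2 and 3, which is 1.97-fold on average, and the exact sign-flip permutation test again gave 0.25. This ratio is uncertain because 48.6% of the 86-nt stretches of the Supt4a transcript match transcripts of other genes within 2 mismatches, Supt4b among them. For Supt5, 7.98% of the stretches match a transcript annotated on the opposite strand at the same locus. No stretch of the transcripts used for Brd3, Cdk9, Ccnt2, Hexim1, Nelfa or Nelfe matched another gene. In the annotated exons, microRNA genes on the same strand overlap 3.36% of the Cdk9 length and 0.0136% of that of Brd3. Nsd2 on the opposite strand overlaps 1.52% of the Nelfa exon length.

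**Figure D3:**
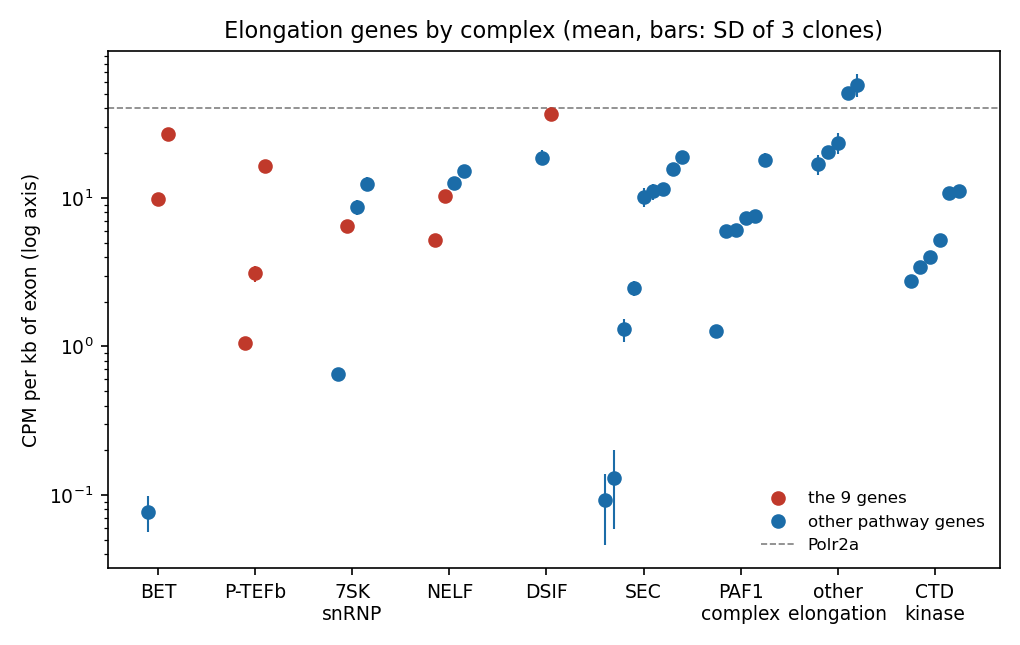
Mean level (CPM per kb of exon, log axis) of the 9 genes in red and of the other genes of the pathway list in blue, grouped by complex, with SD over 3 clones as bars and Polr2a as a dashed line. On this length Supt5 at 36.8 lies under Polr2a at 40.5 CPM per kb, an order that turns with the coding transcript length (56.5 against 42.5), and the cyclin T genes are the lowest of P-TEFb.

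For each gene, the counts of the 3 clones were then set against the library sizes in a chi-square test, with Benjamini-Hochberg adjustment over the 12218 genes that had 10 or more counts in all clones. The test sets the spread between single libraries against counting error only, and the biological coefficient of variation between the clones over all genes tested was 0.187. With 1 library per clone this compares libraries, and a clone cannot be told apart from its culture and its library. Of the 9 genes, 5 were called as differing at an adjusted p under 0.05, while 62.5% of all genes tested were called, so the share among the 9 was close to the background. None of the 9 reached a 1.5-fold difference between any pair of clones (0 of 9), which 18.6% of all genes tested did with a call. The median fold from the lowest to the highest clone was 1.11 over the 9 genes, with a range of 1.04 to 1.23, and 1.24 over all genes tested. Their median coefficient of variation was 5.15%, against 11.3% for all genes tested. The sets differ in level, with a median of 38.4 CPM over the 9 genes and 22.4 CPM over all genes tested. Counting error is larger at lower counts, and whether the 9 genes vary less than genes of similar level was not tested.

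Supt5 had a coefficient of variation of 10.4%, against a median of 11.3% for all genes tested. This gene had the smallest adjusted p of the 9 and was 1.22-fold higher in clone 1 than in clone 2 (chi-square, Benjamini-Hochberg adjusted p = 1.22e-23, from 3e-24 to 8.08e-19 over the other scalings, filters and test). It was also called without clone 1 (adjusted p = 0.0237), without clone 2 (9.82e-13) and without clone 3 (3.51e-22). Ccnt2 was 1.23-fold higher in clone 1 than in clone 3 (adjusted p = 2.96e-06, range 2.02e-06 to 6.16e-05), and without clone 1 the call was lost (0.941), clones 2 and 3 being at 35.8 and 35.6 CPM. Brd3 was 1.11-fold higher in clone 3 than in clone 1 (adjusted p = 0.0155), a call lost without clone 1 (0.636) or clone 3 (0.0539). Nelfa was 1.21-fold higher in clone 3 than in clone 1 (adjusted p = 0.0125), also lost without clone 1 (0.111) or clone 3 (0.425). Brd2 differed by 1.06-fold between clones 3 and 2 (adjusted p = 0.0214), and this was lost without clone 2 (0.342) or clone 3 (0.124). Clone 1 was thus the highest for Supt5 and Ccnt2 and the lowest for Brd3 and Nelfa, and the 9 genes had no common direction.

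Hexim1, Nelfe, Cdk9 and Ccnt1 were not called. The coefficient of variation of Hexim1 was 2.16% and that of Nelfe 2.44%, both below the 4.28% and 4.40% that counting error alone gives on average at their counts. Their adjusted p were 0.814 and 0.781, so a difference between clones was not detectable at this depth. Cdk9 (adjusted p = 0.0823) was highest in clone 1 at 79.3 CPM and was called without clone 2 (0.0473), that is between clones 1 and 3. Ccnt1 ranged from 8.69 CPM in clone 1 to 10.6 CPM in clone 2 (adjusted p = 0.158), and this 1.21-fold range, at 216 to 248 counts, is as large in fold as that of Nelfa.

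**Figure D4:**
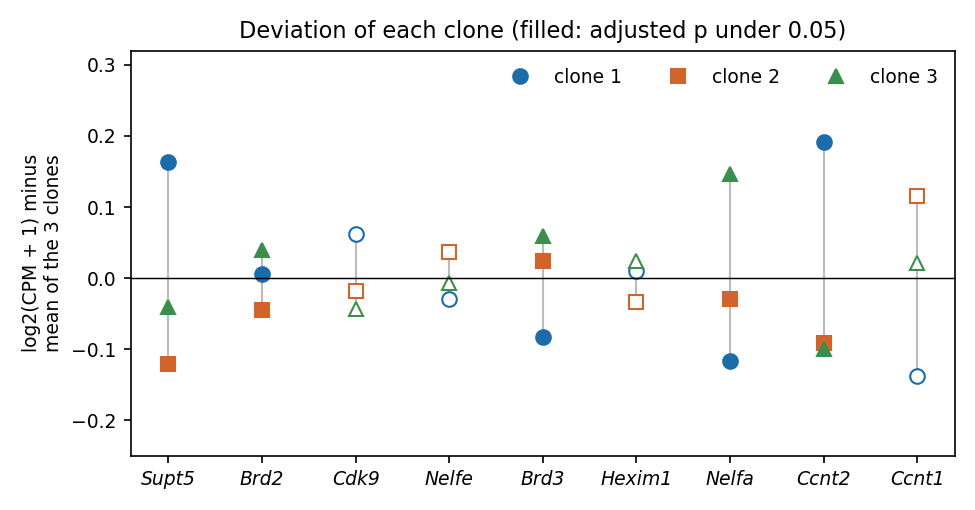
Deviation of log2(CPM + 1) in each clone from the mean of the 3 clones, for each gene, with filled symbols where the chi-square test gave an adjusted p under 0.05. Clone 1 is the highest for Supt5 and Ccnt2 and the lowest for Brd3, Nelfa and Ccnt1, and the clones of Hexim1 and Nelfe lie within a narrow band.

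**Figure D5:**
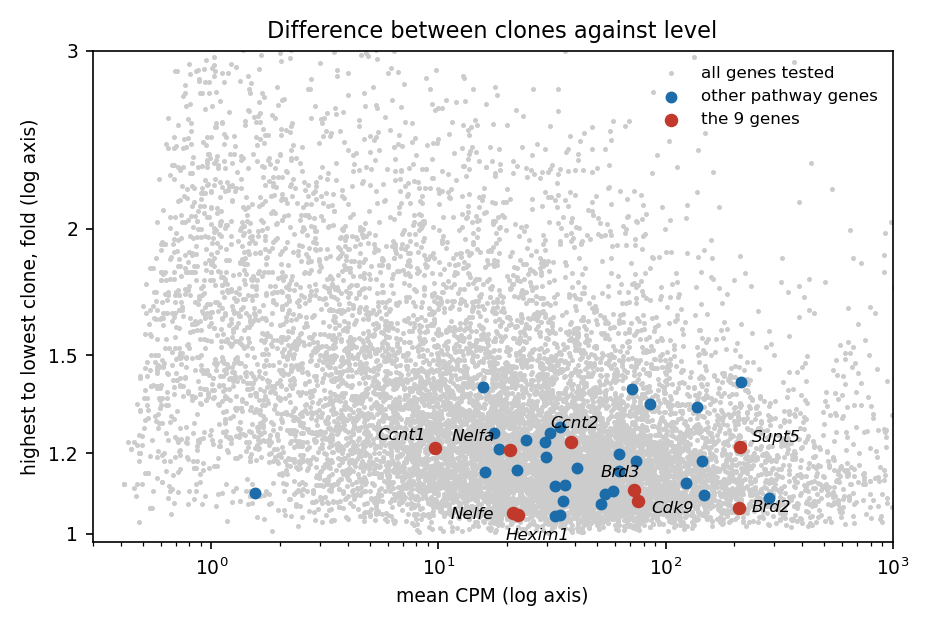
Fold from the lowest to the highest clone against the mean CPM (both log axes) for all genes tested in grey, other pathway genes in blue and the 9 genes in red. The 9 genes lie between 1.04-fold and 1.23-fold, and of the 12218 genes tested, 452 fall outside the axes.

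Ccnt2 had the widest range of the 9 genes on the log2(CPM + 1) scale. Among the 8389 genes that averaged 10 CPM or more, the deviations over the 3 clones closest to its own were those of Setd1a, the gene of an H3K4 methyltransferase (Euclidean distance 0.00619), Pex3, a peroxisome assembly gene (0.00628), and Guk1, the gene of guanylate kinase (0.00669). With 3 clones this likeness is weak, as 192 genes lay within a distance of 0.05.

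The other genes of the pathway were taken from a list of 34 genes, Polr2a included, of which 31 passed the filter. Brdt, Ell3 (7, 2 and 6 counts) and Eaf2 (22, 6 and 14 counts) did not. Of the 31, 21 were called as differing between clones (67.7%, against the same 62.5% of all genes), and 0 of them by 1.5-fold. Clones 1, 2 and 3 held the highest value of 10, 6 and 5 of these 21 genes, and the lowest value of 10, 7 and 4 of them. Over all 7642 genes called, they held the highest value of 2904, 2867 and 1871, and the lowest of 3306, 2597 and 1739. Of the 21 calls, 13 were lost without clone 1, 4 without clone 2 and 4 without clone 3, and 4 genes (Aff4, Supt6, Supt16 and Tcea1) were called in every case. Over all genes, 7642 were called with all clones, 3893 without clone 1, 5632 without clone 2 and 6531 without clone 3. The fewest calls were thus left without clone 1 over all genes too. The super elongation complex (SEC) carries P-TEFb to paused genes. Of its genes, all 7 that were tested were called, against 62.5% of all genes tested. Its scaffold gene Aff4 had 3854, 2623 and 3532 counts, or 137 ± 19.5 CPM (SD over 3 clones), and was the lowest in clone 2 (chi-square, adjusted p = 5.59e-28), like Supt5. The related scaffold gene Aff1 was at 148 ± 6.74 CPM, also lowest in clone 2 (adjusted p = 0.00176). Ell, which encodes an elongation factor of the same complex, was highest in clone 1, with 972, 755 and 775 counts (adjusted p = 4.92e-06). The remaining called genes of the complex, Ell2, Mllt1, Mllt3 and Eaf1, were instead lowest in clone 1, and Mllt3 (332, 336 and 471 counts) had the widest range of the 7, 1.40-fold (adjusted p = 2.24e-05). Aff1 was no longer called without clone 2 (0.58), Ell, Ell2 and Mllt1 without clone 1 (0.192, 0.884 and 0.569), Mllt3 without clone 3 (0.236) and Eaf1 without clone 1 (0.0607) or clone 2 (0.193).

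Both genes of FACT, the histone chaperone that travels with Pol II, had their lowest level in clone 1. Ssrp1 had 4269, 5465 and 5880 counts, or 216 ± 38.3 CPM, with a 1.41-fold range (adjusted p = 3.29e-71), and Supt16 had 1834, 2235 and 2081 counts, or 85.1 ± 12.9 CPM, with a 1.34-fold range (adjusted p = 9.85e-20). Without clone 1, the call of Ssrp1 was lost (adjusted p = 0.0881) and that of Supt16 was not (1.47e-08). Clone 1 also had the lowest sum of proliferation markers, 368 CPM against 609 and 723 CPM, and the part of proliferation in these differences was not tested. Of the 7SK genes, Larp7 (641, 716 and 773 counts, adjusted p = 0.000634) and Mepce (677, 773 and 793 counts, adjusted p = 0.000171) were lowest in clone 1 as well, and both calls were lost without it (0.644 and 0.182), whereas Hexim1 and Hexim2 were not called. Of the 6 genes of the PAF1 complex, which follows NELF on the elongating polymerase, 3 were called, against 62.5% of all genes. Paf1, which lies near Supt5 on chromosome 7 (28392951 to 28399388), was highest in clone 1 at 1735 counts against 1320 and 1473 (adjusted p = 1.44e-07), and was not called without clone 1 (0.957). Another 6 genes encode kinases that act on the same C-terminal domain as P-TEFb, their cyclins and an assembly factor. Of these, 2 were called, against the same 62.5% of all genes. They were Cdk7 and Mnat1, which with Ccnh encode subunits of the initiation factor TFIIH. Both calls were lost without clone 1 (0.853 and 0.304), and that of Mnat1 also without clone 3 (0.226). Cdk12, Cdk13, Ccnk and Ccnh were not called (adjusted p from 0.0740 to 0.777).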

How the data were processed

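As the methods of the paper and the submitters' processing notes state, 86-nt single-end reads were checked with FastQC, aligned with TopHat 2.0.0 (Bowtie 0.12.7, Samtools 0.1.16; 2 mismatches and 5 multi-hits allowed) and assigned to genes with HTSeq. The table deposited by the authors lists raw counts by gene symbol for each clone. The methods name mm10 and the processing notes mm9, and the strand setting, annotation and HTSeq version are not given in the sources used here. Nothing states that the clones come from separate embryos, so p-values measure only the spread between these libraries.

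From the counts, CPM were computed with TMM-scaled library sizes (edgeR 4.0.16, R 4.3.3). Positions, exon lengths and transcripts are from GENCODE M21 (GRCm38), which held 96.9% of the listed symbols. A gene with 10 or more counts in each clone was called as differing where a chi-square test (Pearson, 2 degrees of freedom) gave a Benjamini-Hochberg adjusted p under 0.05 over all such genes. The pseudocount was 1. The procedure was tested on simulated counts that held counting error and set changes only. That simulation lacks the variation between real clones, so it does not bear on calls that such variation gives. The members and lists were chosen with earlier results of these data known. Named are the 9 members, the pathway list and the 3 genes nearest in pattern to the member with the widest range. One gene of the list is not reported here. Protein sequences were not analysed here. The alternatives used size factors of DESeq2 1.42.0, total counts, other filters, a G test, another length, pseudocount 0.5 and leaving out each clone. Wilson intervals are at 95%. Python 3.11.15 with scipy 1.17.1 was used.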

Additional observations from a re-analysis of the deposited data

How the results depend on the processing

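The 9 levels in CPM moved by less than 1 SD under DESeq2 size factors and total counts. Leaving out 1 of 3 clones cannot move a mean by 1 SD, so the loss of a clone does not test these levels. With the length of the transcript holding the longest coding sequence, 8 of the 9 levels per kb moved by more than 1 SD. The mean shares per kb of exon became, by counts not divided by length and by that transcript length, 74.5% and 76.8% for Brd2, 20.3% and 18.9% for Ccnt1, 93.5% and 88.8% for Hexim1 and 51.0% and 62.6% for Nelfe. The 3 log2 ratios kept their sign. With the same length, Brd3 and Nelfe as well as Nelfa and Hexim1 changed places, and Supt5, Brd2 and Cdk9 went from below to above Polr2a (133%, 107% and 103% of it).

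The 5 members called were the same genes under DESeq2 size factors, total counts, both other filters and the G test. With a fold of at least 1.5 required, 0 members, 0 other pathway genes and 2274 of all genes were called. Leaving out each clone gave 2 to 5 members, 8 to 19 other pathway genes and 3893 to 6531 of all genes, and fewer libraries enter each of these tests. Without a clone, 9 of 27 member SDs moved by over 1.5 times. No paired analysis was possible because there is 1 group. Depth limits Ccnt1, Hexim2 and the genes under 10 counts most.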
